A study of Mus musculus with 7 samples.

Results

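The SoxC genes (Sox4, Sox11, Sox12), SoxD genes (Sox5, Sox6, Sox13) and SoxE genes (Sox8, Sox9, Sox10) were examined in 7 mouse RNA sequencing libraries. These 9 genes were taken by name from family membership, out of 24354 gene symbols in the deposited table, and all 9 were listed there. Levels were given as FPKM, fragments corrected for transcript length and library size, so they can be compared between genes. One library came from mouse embryonic fibroblasts (MEF), one from cortical neural stem cells (cNSC), and 5 from induced neural stem cells (iNSC), which are fibroblasts infected with reprogramming factor vectors and kept in neural stem cell medium. All cells were from embryos at embryonic day 13.5. The MEF, pOKSM, pBKSM and mcBKSM libraries had the genotype Oct4-CreER x Rosa26-loxSTOPlox-EYFP on the strain C57BL/6-Pou5f1 x 129X1/SvJ. The DTA line carried Oct4-CreER x Rosa26-loxSTOPlox-DTA, a Cre-dependent diphtheria toxin gene, on a strain labelled unknown, and its vector is not named. The cNSC library came from brain of OG2/ROSA26 mice, labelled as heterozygous females. From general knowledge of such vectors, K, S and M are read as Klf4, Sox2 and Myc, O as Oct4 and B as Brn4, and the prefixes p and mc as polycistronic (several factors on 1 transcript) and monocistronic vectors. None of the 9 genes is among the factors so read, and those of the DTA line are not known here. The mcBKSM libraries are clones numbered 1 and 3, and whether the other lines are clonal is not given. RNA of 2 to 3 biological replicates was pooled for each library, so the only spread within a group is that between the 2 mcBKSM clones.

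SOX proteins bind DNA through an HMG box, a domain that bends the helix, and they act with partner factors. SoxC proteins are activators known for their role in early neuronal differentiation and progenitor survival. SoxD proteins lack a known transactivation domain, form dimers, assist Sox9 in cartilage and modulate SoxE proteins in oligodendrocyte precursors. In the neural tube Sox9 is known for the onset of gliogenesis and stem cell maintenance, Sox8 overlaps with it in glial cells, and Sox10 marks oligodendrocyte and neural crest lineages.

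The bases that encode the start of the HMG box show how the subgroups are set apart. In capitals are the 27 bases of the conserved core, read 5′ to 3′ from GENCODE transcripts (release M21, mm10).
Sox4: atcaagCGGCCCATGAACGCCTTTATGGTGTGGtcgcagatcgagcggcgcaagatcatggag
Sox11: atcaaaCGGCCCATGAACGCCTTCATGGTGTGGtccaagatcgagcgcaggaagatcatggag
Sox12: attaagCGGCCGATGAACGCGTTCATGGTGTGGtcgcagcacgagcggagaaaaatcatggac
Sox5: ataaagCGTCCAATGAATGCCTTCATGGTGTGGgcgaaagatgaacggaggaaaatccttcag
Sox6: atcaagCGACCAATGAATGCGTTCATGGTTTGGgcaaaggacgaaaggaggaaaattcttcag
Sox13: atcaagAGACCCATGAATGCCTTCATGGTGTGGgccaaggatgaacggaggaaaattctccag
Sox8: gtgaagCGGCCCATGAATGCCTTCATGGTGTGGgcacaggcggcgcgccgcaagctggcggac
Sox9: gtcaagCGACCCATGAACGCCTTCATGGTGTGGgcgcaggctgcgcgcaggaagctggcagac
Sox10: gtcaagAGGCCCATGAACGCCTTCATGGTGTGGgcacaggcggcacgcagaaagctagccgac
These windows of 63 bases each lay in 1 coding exon. The SoxC windows were at chr13:28952785-28952847 (Sox4), chr12:27342202-27342264 (Sox11) and chr2:152397519-152397581 (Sox12). The SoxD windows were at chr6:143841217-143841279 (Sox5), chr7:115489706-115489768 (Sox6) and chr1:133385509-133385571 (Sox13). The SoxE windows were at chr17:25570166-25570228 (Sox8), chr11:112782897-112782959 (Sox9) and chr15:79163345-79163407 (Sox10). The Sox9 window was on the plus strand and the other 8 on the minus strand. Over the whole box of 237 bases, genes of the same subgroup were 81.4% to 89.5% identical, and genes of different subgroups 53.2% to 71.7%. The longest stretch that the longest coding transcripts of any pair shared exactly was 48 bases, between Sox4 and Sox11. Sox9 and Sox10 shared 44. The read length is not given in the sources used here, so how far such stretches split reads between these genes was not tested.

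By the test described below, 6 of 10 neural stem cell markers were called higher in iNSC than in MEF, against 6.77% of all genes. These were Nes, Sox2, Pax6, Fabp7, Msi1 and Olig2. Prom1, Hes5, Slc1a3 and Vim were not called, and Vim was 2239 FPKM in MEF against 1669 to 3126 FPKM in the iNSC libraries. Nes, encoding nestin, was 0.103 FPKM in MEF and 132 to 275 FPKM in the iNSC libraries, while the collagen gene Col1a1 was 440 FPKM in MEF and at most 0.962 FPKM in the iNSC libraries. The summed level of 10 fibroblast genes was 1502 FPKM in MEF, 34.7 to 48.4 FPKM in pOKSM and both mcBKSM clones, and 2.71 to 4.46 FPKM in pBKSM, DTA and cNSC. Summed endothelial genes (6 genes) reached at most 1.82 FPKM and summed microglia genes (6 genes) at most 2.98 FPKM in any library. Estimated from the step between low values, depth was about 11700000 to 17300000 fragments per library, and 3 fragments on a transcript of 2 kb then correspond to 0.0963 to 0.142 FPKM. This floor covers counting error only.

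The plot of levels by library shows the 3 subgroups side by side.

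**Figure D1:**
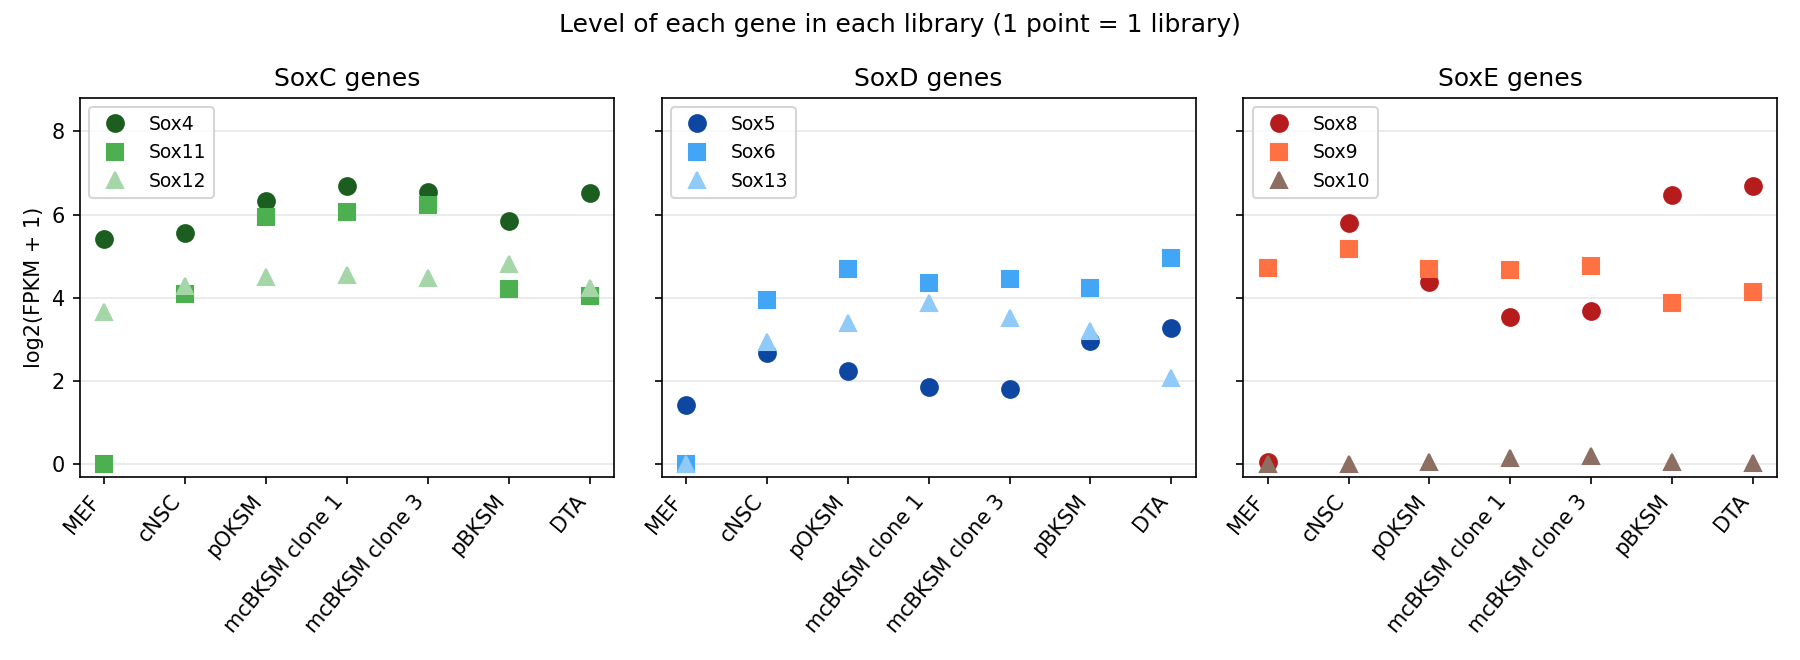
Level of each gene as log2(FPKM + 1) (vertical axis) in each of the 7 libraries (horizontal axis), with SoxC, SoxD and SoxE genes in separate panels and 1 point per library. Sox11, Sox6 and Sox13 sit at 0 in MEF and above it elsewhere, Sox9 stays between 13.7 and 35.3 FPKM, and Sox10 lies at the bottom in all 7 libraries.

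Among the SoxC genes, Sox4, an activator also widely active outside the nervous system, was well expressed in every library. It was 41.7 FPKM in MEF, 46.4 in cNSC, 79.6 in pOKSM, 56.8 in pBKSM, 102 in mcBKSM clone 1, 92.4 in clone 3 and 91.1 in DTA. All 5 iNSC libraries were above both reference libraries, a pattern whose share among all genes was not counted. The DTA value and that of clone 3 lay closer together than the 2 clones did. Sox11, the SoxC gene most tied to immature neurons, was listed at 0 in MEF and was 16.1 FPKM in cNSC, 60.4 in pOKSM, 17.6 in pBKSM, 66.1 in clone 1, 74.2 in clone 3 and 15.4 in DTA. By these values the libraries other than MEF were sorted into a high set (pOKSM and both clones) and a low set (cNSC, pBKSM and DTA). The labels do not give these sets. Within the low set, neighbouring libraries differed by no more than the clones did on the log2(FPKM + 1) scale (0.16). Sox12, the weakest activator of the subgroup, varied least: 11.5 FPKM in MEF, 18.3 in cNSC, 21.8 in pOKSM, 27.1 in pBKSM, 22.3 in clone 1, 21.3 in clone 3 and 17.9 in DTA. Its highest iNSC value was 1.51 times its lowest, against 4.82 times for Sox11 and 1.79 times for Sox4.

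The SoxD genes differed from each other in their pattern. Sox6, which restrains precursor differentiation in the oligodendrocyte lineage, was listed at 0 in MEF and was 14.3 FPKM in cNSC, 24.7 in pOKSM, 17.7 in pBKSM, 19.4 in clone 1, 20.7 in clone 3 and 29.9 in DTA. It was the main SoxD transcript of each library except MEF, with 54.3% to 71.7% of the summed SoxD level. Sox13, the least studied of the 3 in brain, was listed at 0 in MEF and was 6.61 FPKM in cNSC, 9.48 in pOKSM, 8.17 in pBKSM, 13.6 in clone 1, 10.4 in clone 3 and 3.19 in DTA. DTA was lowest of the iNSC libraries, and from clone 1 down to cNSC each neighbouring pair differed by no more than the clones. Sox5, which works with Sox6 in cartilage, was the only SoxD gene detected in MEF, at 1.70 FPKM. It was 5.36 FPKM in cNSC, 3.70 in pOKSM, 6.74 in pBKSM, 2.62 in clone 1, 2.49 in clone 3 and 8.62 in DTA. As with Sox8, the top 3 libraries for Sox5 were DTA, pBKSM and cNSC, in that order. Summed over the 3 genes, SoxD levels in the iNSC libraries spanned 32.6 to 41.7 FPKM.

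Of the SoxE genes, Sox9 spanned 1.30 over the 7 libraries on the log2(FPKM + 1) scale, Sox8 spanned 6.63, and Sox10 was at or near 0. Sox9 was 25.3 FPKM in MEF, 35.3 in cNSC, 24.7 in pOKSM, 13.7 in pBKSM, 24.3 in clone 1, 26.1 in clone 3 and 16.7 in DTA. MEF lay inside the range of the iNSC libraries, and MEF and pOKSM lay between the 2 clones. Sox8 was 0.0432 FPKM in MEF, a value worth about 2 fragments and below the floor of 3. It was 54.3 FPKM in cNSC, 19.9 in pOKSM, 87.8 in pBKSM, 10.7 in clone 1, 11.8 in clone 3 and 102 in DTA. Sorted by these values, the high set was DTA, pBKSM and cNSC and the low set pOKSM and both clones. The highest iNSC value was 9.60 times the lowest. Sox10 was listed at 0 in MEF and cNSC and was 0.0313 FPKM in pOKSM, 0.0339 in pBKSM, 0.105 in clone 1, 0.145 in clone 3 and 0.0230 in DTA. The values of pOKSM, pBKSM and DTA were each worth about 1 fragment, those of the clones about 4 and 5. An antisense gene, 2810468N07Rik, shares 329 exon bases with Sox8, whose exons cover 3118. It was 1.19 FPKM in MEF, 7.83 in cNSC and 18.2 to 34.6 in the iNSC libraries. Strand-specific counting is not stated, so reads in the shared part cannot be assigned to 1 of the 2 genes.

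The SoxE level was made up differently from library to library. Sox9 accounted for 99.8% of summed SoxE FPKM in MEF, 69.3% and 68.6% in clones 1 and 3, 55.4% in pOKSM, 39.4% in cNSC, 14.0% in DTA and 13.5% in pBKSM. The Sox8 to Sox9 ratio, which does not depend on how libraries are scaled to each other, was 0.438 and 0.452 in the clones, 0.805 in pOKSM, 1.54 in cNSC, 6.13 in DTA and 6.41 in pBKSM. The cNSC library thus lay between the iNSC sets in this ratio. Summed SoxC levels ran from 53.2 FPKM in MEF and 80.7 in cNSC to 190 in clone 1. In the plot of summed levels these shares can be read for every library.

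**Figure D2:**
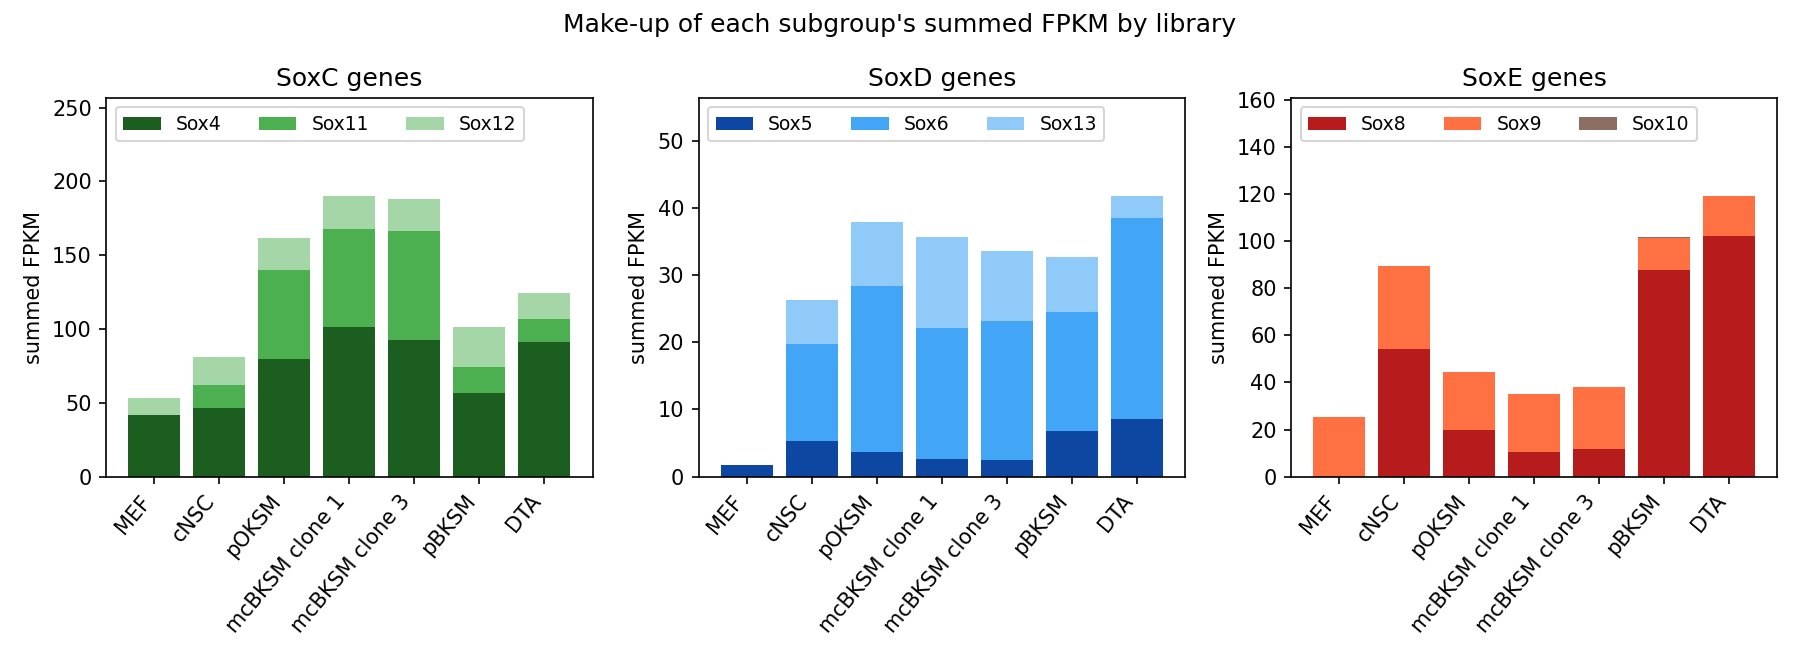
Summed FPKM of the SoxC, SoxD and SoxE genes (vertical axis, starting at 0) in the 7 libraries, with each bar divided by gene. Sox8 makes up 86.5% of the SoxE bar in pBKSM and 86.0% in DTA, and 30.4% and 31.0% in the mcBKSM clones.

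Between the reference cells, Sox8, Sox11, Sox6 and Sox13 stood higher in cNSC than in MEF by 4-fold or more, taken on log2(FPKM + 1) values, and reached 5 FPKM in cNSC. They are 4 of the 8 genes that reached 5 FPKM in either library, and 7.55% of all such genes did so. Of all such genes, 6.48% were 4-fold lower. Sox8, Sox11, Sox6, Sox13 and Sox5 reached 5 FPKM in cNSC alone, so they could not count as lower. Sox4, Sox12 and Sox9 reached it in both libraries and were not 4-fold lower. Sox4, Sox12, Sox5 and Sox9 differed by 0.15, 0.63, 1.24 and 0.47 on that scale. This comparison sets 1 library against 1 and has no replicate check. In bulk RNA, fewer cells of a type and less RNA per cell cannot be told apart.

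The iNSC libraries were compared with MEF to see which of these genes the converted cells gained. Differences here and below are on the log2(FPKM + 1) scale, from limma with Benjamini-Hochberg adjustment over all genes tested, and calls were made below an adjusted p of 0.05. Sox11, Sox6 and Sox13 rose, so 3 of 8 tested genes were called higher, against 6.77% of all tested genes. None was called lower, against 9.55%. Sox11, Sox6, Sox13 and Sox8 were at or near 0 in MEF, so they could not have been called lower. Sox10 did not reach the 1 FPKM needed for testing. The median difference of the 8 genes was 2.10, that of all genes 0.03. Sox6 was 22.5 ± 4.87 FPKM in the iNSC libraries (SD, n = 5), a difference of 4.53 ± 0.31 (SE, adjusted p = 0.000539). Sox11 was 46.7 ± 28.1 FPKM (SD, n = 5), a difference of 5.30 ± 1.01 (SE, adjusted p = 0.0220). Sox13 was 8.97 ± 3.81 FPKM (SD, n = 5), a difference of 3.21 ± 0.66 (SE, adjusted p = 0.0284). All 3 were listed at 0 in MEF and above 3 FPKM in 5 of 5 iNSC libraries.

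Sox8 had a difference as large, 4.89, but its spread between lines was wide (SE 1.42) and it did not pass (adjusted p = 0.0733). Its iNSC values were 46.5 ± 44.8 FPKM (SD, n = 5). Sox4 (difference 0.97 ± 0.32, SE, adjusted p = 0.0994), Sox12 (0.87 ± 0.23, adjusted p = 0.0585) and Sox5 (0.99 ± 0.64, adjusted p = 0.340) did not pass either. Sox9 differed by -0.29 ± 0.38 (SE, adjusted p = 0.631), with 21.1 ± 5.53 FPKM in the iNSC libraries against 25.3 in MEF. The test sets 1 MEF library against the spread between lines. The Sox6 call held in each alternative run (adjusted p from 0.000196 to 0.00461). The Sox11 call ended without pOKSM (adjusted p = 0.0607; 0.00527 to 0.0607 over its alternatives). The Sox13 call ended without pOKSM (adjusted p = 0.0779), pBKSM (0.0553), clone 1 (0.0529) or clone 3 (0.0671), or with the clones averaged (0.0577), and its adjusted p ran from 0.00416 to 0.0779 over its alternatives. Sox8 passed with a pseudocount of 0.1 (adjusted p = 0.0222; 0.0222 to 0.138 over its alternatives). Sox4 passed without pBKSM (adjusted p = 0.0206, up to 0.186 over its alternatives). Sox12 passed after quantile normalization (adjusted p = 0.0439) and without DTA (0.0289), with up to 0.139 over its alternatives.

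Against cNSC, none of the 8 tested genes was called, while 1.17% of all genes were. At an unadjusted p under 0.05 there was 1 of the 8, Sox4, and 13.6% of all genes. Sox4 was 84.3 ± 17.3 FPKM in the iNSC libraries (SD, n = 5) against 46.4, a difference of 0.82 ± 0.32 (SE, adjusted p = 0.356). Sox6 differed by 0.59 ± 0.31 (SE, adjusted p = 0.459) and Sox9 by -0.76 ± 0.38 (SE, adjusted p = 0.453). For Sox8 (-0.84 ± 1.42, SE, adjusted p = 0.800) and Sox11 (1.21 ± 1.01, SE, adjusted p = 0.612) the iNSC values lay on both sides of cNSC. The cNSC strain differs from that of MEF and 4 iNSC libraries (that of DTA is unknown), and strain and cell type cannot be told apart here.

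**Figure D3:**
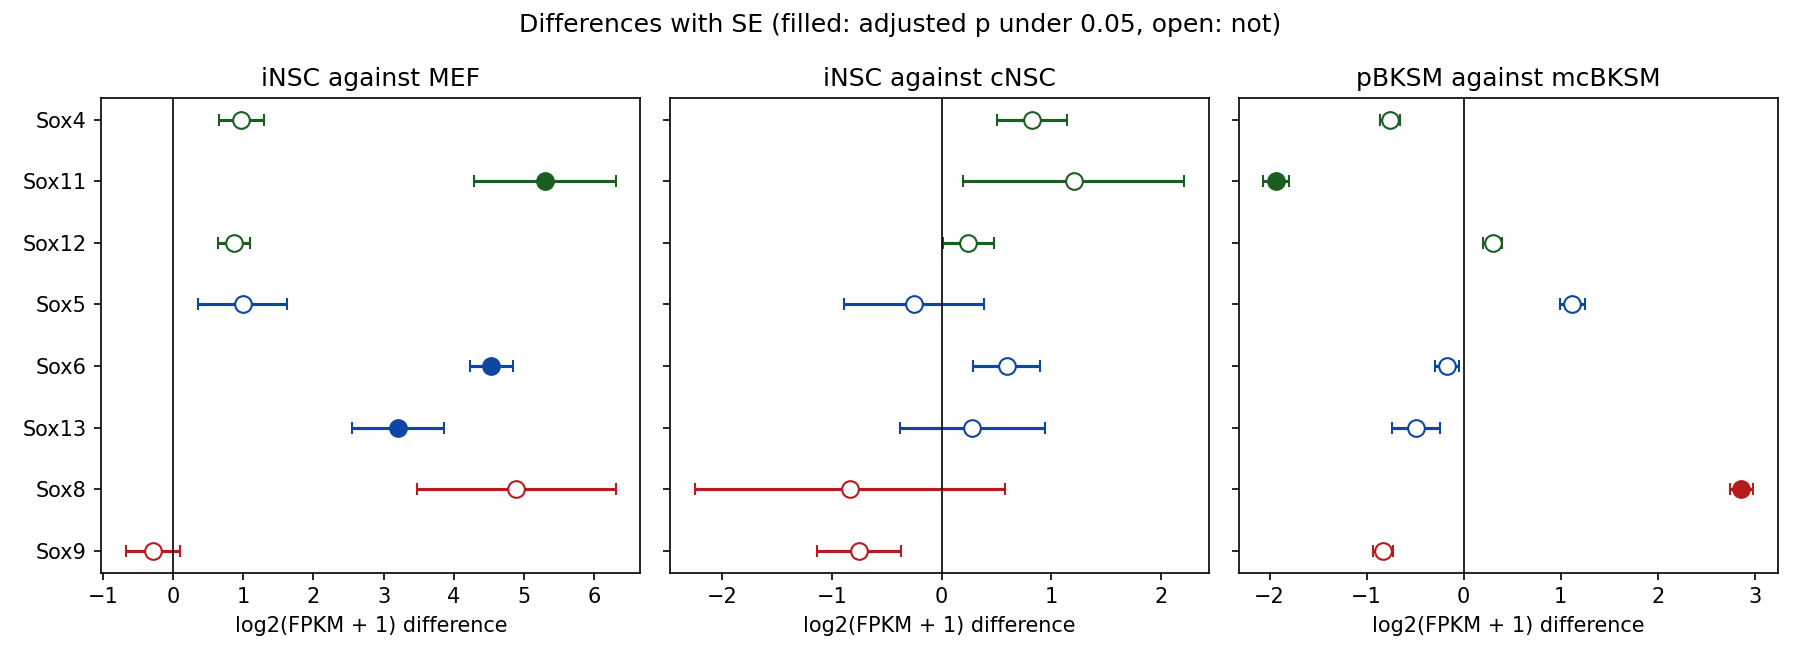
Difference in log2(FPKM + 1) with its SE (horizontal axis) for the 8 tested genes (vertical axis) in the comparisons of iNSC with MEF, iNSC with cNSC and pBKSM with mcBKSM. Filled points passed an adjusted p under 0.05: Sox11, Sox6 and Sox13 in the first panel, none in the second, and Sox11 and Sox8 in the last panel.

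The pBKSM line and the mcBKSM clones carry the same letters for their factors, on vectors of different type. Sox8 was higher in pBKSM, at 87.8 FPKM against 10.7 and 11.8, a difference of 2.86 ± 0.12 (SE, adjusted p = 0.0374). Sox11 was lower, at 17.6 FPKM against 66.1 and 74.2, a difference of -1.93 ± 0.13 (SE, adjusted p = 0.0491). So 1 of 8 tested genes was called higher, against 3.74% of all genes, and 1 lower, against 2.08%. Sox5 (1.12 ± 0.13, SE, adjusted p = 0.0669), Sox9 (-0.83 ± 0.10, adjusted p = 0.0716) and Sox4 (-0.76 ± 0.10, adjusted p = 0.0758) did not pass. Sox6 differed by -0.17 ± 0.12 and Sox13 by -0.49 ± 0.25 (adjusted p = 0.406 and 0.282), and Sox12 by 0.30 ± 0.10 (0.175). The spread comes from 1 residual degree of freedom, and the number of these genes called ran from 0 without a filter to 5 when the 3 BKSM libraries were fitted alone, where 21.1% of all genes were called. The Sox8 adjusted p ran from 0.0122 to 0.0514 over its alternatives, and that of Sox11 from 0.0159 to 0.0730.

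By label, pBKSM and pOKSM differ in the first factor of the polycistronic vector. Limma called 0 of the 8 tested genes and 0% of all genes. At an unadjusted p under 0.05 there were 5 of the 8 and 25.1% of all genes. Sox8 (difference 2.09 ± 0.14, SE, adjusted p = 0.109) and Sox5 (0.72 ± 0.15, adjusted p = 0.173) had more FPKM in pBKSM. Sox11 (-1.73 ± 0.15, SE, adjusted p = 0.121), Sox9 (-0.81 ± 0.12, 0.149) and Sox4 (-0.48 ± 0.12, 0.195) had more in pOKSM. Each side is 1 library, with spread borrowed from the mcBKSM clones, and this comparison shares pBKSM with the preceding one.

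Both polycistronic lines against both mcBKSM clones gave 0 called of 8 tested genes, against 0.0165% of all genes. At an unadjusted p under 0.05 there was 1 of the 8, Sox8, and 8.39% of all genes. Sox8 differed by 1.82 ± 0.69 (SE, adjusted p = 0.524), with 19.9 and 87.8 FPKM in the polycistronic lines. Without pOKSM, this is the same fit as that of the 3 BKSM libraries alone, with a Sox8 difference of 2.86, and not a separate result.

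For the DTA line against the other 4 iNSC libraries, 0 of 8 were called, against 0.355% of all genes. At an unadjusted p under 0.05 there was 1 of the 8, Sox13, and 20.5% of all genes. Sox13 was 3.19 FPKM in DTA and 8.17 to 13.6 FPKM in the others, a difference of -1.42 ± 0.30 (SE, adjusted p = 0.113). Sox6 was highest in DTA, at 29.9 FPKM against 17.7 to 24.7 (0.52 ± 0.22, SE, adjusted p = 0.270). Sox8 and Sox11 in DTA lay next to pBKSM, and without pBKSM 5 of the 8 genes were called (Sox8, Sox5, Sox11, Sox13 and Sox9), and so were 32.3% of all genes.

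Sox8 and Sox11 had opposite orders over the iNSC libraries, except between the mcBKSM clones, where clone 3 was higher for both. The ratio of Sox8 to Sox11 was 0.161 and 0.159 in the clones, 0.329 in pOKSM, 3.38 in cNSC, 4.99 in pBKSM and 6.65 in DTA. No ratio is given for MEF, where Sox11 was listed at 0.

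**Figure D4:**
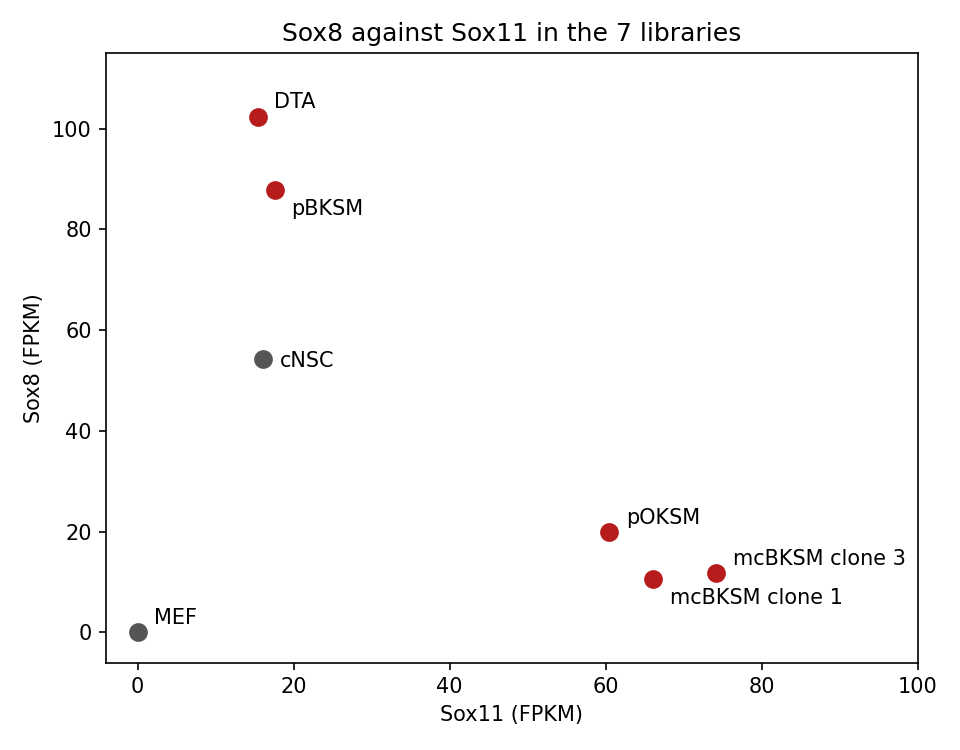
Sox8 (vertical axis, FPKM) against Sox11 (horizontal axis, FPKM), 1 labelled point per library, with iNSC libraries in red and the reference libraries in grey. DTA and pBKSM combine 87.8 to 102 FPKM of Sox8 with 15.4 to 17.6 FPKM of Sox11, and pOKSM and the clones combine 10.7 to 19.9 FPKM of Sox8 with 60.4 to 74.2 FPKM of Sox11.

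Because these genes differed most between the lines, the 250 bases before their RefSeq starts are shown (GRCm38.p6, minus strand, 5′ to 3′), with an E-box in capitals where present.
Sox8: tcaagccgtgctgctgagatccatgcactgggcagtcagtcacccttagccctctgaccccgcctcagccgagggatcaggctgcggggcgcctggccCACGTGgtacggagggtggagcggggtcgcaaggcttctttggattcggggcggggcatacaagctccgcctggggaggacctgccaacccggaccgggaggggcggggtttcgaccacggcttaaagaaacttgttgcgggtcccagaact
Sox11: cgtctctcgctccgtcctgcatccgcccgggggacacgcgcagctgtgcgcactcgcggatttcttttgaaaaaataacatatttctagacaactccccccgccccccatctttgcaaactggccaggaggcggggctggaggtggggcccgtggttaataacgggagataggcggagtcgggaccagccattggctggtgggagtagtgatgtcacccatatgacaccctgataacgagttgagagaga
They lie at chr17:25570687-25570936 (Sox8) and chr12:27342719-27342968 (Sox11). Motifs were searched on both strands in the 250 bases before each of 32851 RefSeq starts: the octamer ATGCAAAT known from POU factors, the SOX cores AACAAT and ACAAAG, and the E-box CACGTG known from Myc and from Hes and Hey factors. They occurred in 1.60%, 9.42%, 16.5% and 6.02% of all windows. The Sox8 window held 1 E-box, starting 152 bases before the start, and the Sox11 window held none of the 4 letter strings. The Sox12 window held 1 octamer, starting 195 bases before the start. Of 6 Sox6 windows, 5 held ACAAAG and 1 held AACAAT. The windows of Sox4, Sox5 and Sox13 held none. In all 7 of the 9 genes matched the table. A match is a description of letters and not a bound site.

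Genes tied to these factors were examined from lists of neuronal, glial, cartilage and neural crest genes. Their counts stand beside the shares of all genes called, which were 6.77% higher and 9.55% lower for iNSC against MEF, and 3.74% higher and 2.08% lower for pBKSM against the clones. Early neuronal genes, the context of SoxC factors, were called higher in iNSC than in MEF for 2 of 13 tested and lower for 0 (median 1.31). These were the dendrite gene Map2 (161 ± 59.8 FPKM, SD, n = 5, against 6.42) and the progenitor regulator Prox1 (5.07 ± 1.75 against 0). In pBKSM against the clones 2 were lower and 1 higher (median -0.51, all genes 0). The neuronal splicing factor gene Rbfox3 was 1.62 FPKM in pBKSM against 29.7 and 26.0, and the growth cone gene Stmn2 was listed at 0 against 2.21 and 2.60. Neurod1 was higher, at 1.11 FPKM against 0.0577 and 0. Rbfox3 was 19.9 FPKM in pOKSM and at most 1.62 FPKM in pBKSM, DTA, cNSC and MEF, so its high libraries were those of Sox11. The summed fibroblast list was also higher in these 3 libraries than in the other iNSC libraries, through Col3a1 (10.3 to 25.8 FPKM) and Fbn1 (18.7 to 22.4 FPKM), and its part in the result was not tested.

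Astrocyte genes, a context of SoxE factors, were called higher in iNSC than in MEF for 2 of 14 (6.77% of all genes) and lower for 0 (median 1.54): the lipid carrier Fabp7 and the glycolytic enzyme gene Aldoc. In pBKSM against the clones 5 of 14 were higher (3.74% of all genes) and 0 lower (median 1.78). The calcium-binding gene S100b was 61.5 FPKM against 0.0450 and 0, the glutamate transporter gene Slc1a3 168 FPKM against 32.3 and 29.5, Aldoc 431 FPKM against 106 and 102, and the gliogenic factor gene Nfia 32.4 FPKM against 7.01 and 7.58. In DTA against the other iNSC libraries 1 of 14 was called, beside 0.355% of all genes. It was the water channel gene Aqp4, at 12.7 FPKM against 0.0300 to 0.560. S100b did not follow Sox8 in DTA, where it was 4.31 FPKM.

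Oligodendrocyte lineage genes were called higher in iNSC than in MEF for 4 of 11 (6.77% of all genes) and lower for 2 (9.55% of all genes, median 1.33). Olig1 (569 ± 561 FPKM, SD, n = 5, against 0) and Olig2 (178 ± 148 against 0), which specify the lineage, and the myelin enzyme gene Cnp (36.1 ± 17.1 against 1.89) were among the higher. The receptor gene Pdgfra (108 FPKM in MEF) and the proteoglycan gene Cspg4 (8.64 in MEF) were the lower members, and fibroblasts express both. In pBKSM against the clones Olig2 was higher (423 FPKM against 65.1 and 59.5), and Pdgfra (1.06 against 8.07 and 8.12) and Zfp536 (0.0203 against 3.16 and 3.65) were lower. The late lineage genes Mog and Mag stayed at or below 0.0297 FPKM, beside Sox10 at or below 0.145 FPKM.

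Genes of the cartilage list, a context of Sox9, Sox5 and Sox6, were called lower in iNSC than in MEF for 2 of 6 tested. Of all genes 9.55% were called lower, and none of the list was called higher. The lower members were Runx2 (15.1 FPKM in MEF, 0.483 ± 0.346 in the lines, SD, n = 5), a bone regulator, and Col2a1 (1.83 and 0.223 ± 0.166). The median difference of the 6 was 0.58, opposite in sign to both calls. In pBKSM against the clones Col9a3 (35.1 FPKM against 0.526 and 0.386) and Col9a2 (1.54 against 0.390 and 0.315), chains of a cartilage collagen, were higher. Acan, Hapln1 and Matn1 stayed at or below 0.136 FPKM in each library. Neural crest, Schwann and melanocyte genes gave 2 of 11 lower than in MEF, against 9.55% of all genes, and 0 higher. These were Snai2 (12.5 FPKM in MEF) and Pax3 (3.16 FPKM in MEF). Foxd3 and Dct were listed at 0 in each library. In DTA against the other iNSC libraries 2 of 9 tested genes of this list were called higher and 1 lower. Of all genes 0.355% were called either way. Tfap2a and Pax7 were higher (4.58 and 3.50 FPKM against at most 0.0842 and 0.0387), and Twist1 was lower (0.280 FPKM against 13.4 to 16.9). In cNSC, Tfap2a was 1.02, Pax7 4.99 and Twist1 0 FPKM. In MEF, Tfap2a was 10.3, Pax7 0 and Twist1 29.4 FPKM.

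Of the other 10 Sox genes listed, Sox1, Sox2, Sox3 and Sox21 reached 1 FPKM. Sox2 and Sox21 rose against MEF (2 of 4 tested, against 6.77% of all genes). Sox2 is read as a vector factor, and whether its FPKM holds vector transcript was not tested. In pBKSM against the clones Sox1 (2.31 FPKM against 27.1 and 27.7) and Sox2 (87.6 against 342 and 390) were lower and Sox3 (58.8 against 0.177 and 0.0779) higher. Sox17 and Sox14 were listed at 0 in each library, and Sox7, Sox18, Sox15 and Sox30 stayed at or below 0.355 FPKM.

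For each of the 8 expressed genes, the profiles most like it were found by Pearson r on log2(FPKM + 1) over the 7 libraries, among 6092 genes. With 7 points, of which MEF often stands alone, high values are common, and they are given as descriptions. The nearest profile to Sox11 was Hey1, a Notch target (r = 0.999), with 94.9 to 122 FPKM in pOKSM and the clones and 21.2 to 24.7 FPKM in pBKSM, cNSC and DTA. Zfp286 and Mapk12 came next (0.997 each). Sox8 was nearest to Scamp5 (0.997), Jakmip2 (0.996) and BC064078 (0.996). Sox5 was nearest to Cttnbp2 (0.995), Zeb1 (0.994) and Zhx1 (0.993), with Zeb1 from 21.9 FPKM in MEF to 142 FPKM in DTA. Sox6 was nearest to Zfp2 (0.997), Sema5b (0.996) and Galnt16 (0.995), and Sox13 to Cenpv (0.994), Abcc4 (0.987) and Rangrf (0.986). Sox12 was nearest to Igbp1 (0.997), Gemin8 (0.995) and Rbbp4 (0.994), and Sox4 to Itga6 (0.986), Cadm3 (0.974) and Tshz2 (0.966). For Sox9 the nearest were Smad3 (0.978), a TGF-beta signal transducer, Map1b (0.969) and Cnrip1 (0.955). Smad3 was 32.7 FPKM in cNSC and 7.97 FPKM in pBKSM, the highest and the lowest library, as for Sox9. Among the 9 genes themselves, Sox8 and Sox5 (r = 0.931) and Sox11 and Sox13 (r = 0.958) were close.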

How the data were processed

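The deposited table gives FPKM for 7 libraries. Per the submitters' processing notes, the authors' tools were Cufflinks 2.2.1 with Cuffnorm, STAR 2.5.2b and R 3.3.2, and the build was mm10. What each tool did, the annotation and the read length: not given in the sources used here. Each column matched 1 sample title.

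Tests used log2(FPKM + 1) in limma 3.58.1 (R 4.3.3) with a trended prior. A gene entered a fit if any of its libraries reached 1 FPKM, and p-values were adjusted by Benjamini-Hochberg across all genes entered. The 3 classes formed 1 fit and the 6 label groups another. The polycistronic and the DTA comparisons were fitted on the 4 and 5 libraries concerned. A single library was taken to have the spread of the replicated group, so p-values measure spread between lines or clones. The 5 iNSC lines were treated as independent. The tests were checked on simulated data. There each gene had the same spread in every library and libraries were independent, so these assumptions were not checked.

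Depth was estimated from genes with 1 transcript over 1500 bases, taking 200 bases off the length. At the fitted depths, 78.5% to 82.6% of low values were whole fragment numbers to within 0.1, where 20% would be by chance. Depths of genes with several transcripts are approximate.

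The 9 genes, the gene lists and the tests were chosen with earlier results of these data known. Named list members are up to 4 called genes with the largest differences. Members given only as values at or near 0 were named after their values were seen. Profiles were ranked among genes with at least 5 FPKM in some library and a log2 range of at least 1, skipping predicted, microRNA and ribosomal protein genes.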

Additional observations from a re-analysis of the deposited data

How the results depend on the processing

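No paired analysis was possible because the labels pair no libraries, and only mcBKSM has more than 1 library. Of the called numbers of SoxC, SoxD and SoxE genes, that of iNSC against MEF (3) was 1 to 4 when a library was left out, and 1 without pOKSM. It was 2 with the mcBKSM clones averaged, an alternative chosen after seeing the data. For pBKSM against mcBKSM (2) it was 1 with a pseudocount of 0.1, 0 without a filter, 1 after quantile normalization and 5 for the 3 BKSM libraries alone. For polycistronic lines against mcBKSM (0) it was 0 to 5 with a library left out, and for DTA against the other iNSC libraries (0) also 0 to 5. Against cNSC and for pBKSM against pOKSM it was 0 in each alternative run. In the polycistronic comparison, uncalled differences turned sign: Sox12 was -0.00145 without pBKSM and 0.30 without pOKSM, and Sox6 -0.17 without pOKSM and 0.28 without pBKSM. Over all genes, counts moved as well. For iNSC against MEF, 2128 genes became 1147 without pOKSM and 3193 without DTA. For iNSC against cNSC, 152 became 50 to 883 with a library left out, 618 without a filter, 74 with a 5 FPKM filter or a pseudocount of 0.1, and 63 with the clones averaged. For pBKSM against mcBKSM, 759 became 1454 with a 5 FPKM filter and 2536 for the 3 libraries alone. For pBKSM against pOKSM, 0 became 374 without a filter, 90 with a 5 FPKM filter and 7 with a pseudocount of 0.1. For the polycistronic comparison, 2 became 0 to 2536 with a library left out. For DTA, 44 became 0 to 3951 with a library left out, 583 without a filter, 17 with a pseudocount of 0.1 and 16 with a 5 FPKM filter. The cause was not tested. The polycistronic comparison without pOKSM is the same fit as that of the 3 BKSM libraries alone, so its counts repeat. Depth limits Sox8 in MEF and Sox10 in all libraries but the mcBKSM clones. There Sox10 was worth about 4 and 5 fragments, just above the floor of 3.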
